A study of Mus musculus with 89 samples.

Results

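Livers of mice injected with large exosomes of the B16F10 melanoma line (group Exo-L) were compared with livers of mice injected with phosphate-buffered saline (group PBS-10), by sequencing of liver messenger RNA. The rows were chosen by the comparison alone, without regard to any value: all 42687 genes of the authors' deposited table for Exo-L against PBS-10 were taken, of which 17322 carried an adjusted p-value and are called tested here. Both groups held 4 livers of C57BL/6 mice, out of 89 samples in 23 groups in the whole series. Exo-L mice received 10 µg of large exosomes in 100 µl of PBS into a vein every other day for 4 weeks, and PBS-10 mice the same volume of PBS on the same schedule. Mice given the same mass of small exosomes (Exo-S, 4 livers) or of exomeres (4 livers) were set against the same PBS-10 livers. A separate experiment compared B16F10-CL-EVPs (5 livers), which by the study's naming are vesicles and particles of the cultured line, with its own PBS-8 group (5 livers). Neither age nor sex of these mice is in the labels, and nothing there says whether the samples of a group came from separate animals, so p-values measure the spread between these samples only.

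B16F10 is a mouse melanoma line that arose in the C57BL/6 strain and that spreads mainly to the lung. Tumour cells release membrane vesicles of different sizes, the large and small exosomes, and smaller particles without a membrane, the exomeres. Particles that enter the blood are taken up in the liver mostly by Kupffer cells, the resident macrophages that line the sinusoids. Interferon-gamma, made by T and natural killer cells, switches on antigen presentation genes and guanosine triphosphatases (GTPases) of cell-autonomous defence, in macrophages and hepatocytes alike. Interleukin-6, interleukin-1 and tumour necrosis factor drive the acute phase response, in which hepatocytes release serum amyloid A, haptoglobin and other plasma proteins and make less albumin.

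The tables hold no value per liver, so each gene is described by the authors' deposited log2 fold change of Exo-L over PBS-10, with its deposited standard error after the ± sign. The authors shrank these folds toward 0 but not their p-values, so that a poorly measured gene can have a small fold beside a small p. A gene was called higher or lower where the authors' DESeq2 adjusted p was under 0.05. The abundance of a gene is given as its base mean, the mean normalised count over all livers of a fit, and the base mean was identical in the Exo-L, Exo-S and exomere tables. Summed over all genes the base means came to 1.80e+07, of which the hepatocyte product Alb took 10.9%. The melanoma pigment genes Tyr, Tyrp1, Mlana and Oca2 each had a base mean of 0, and Dct, which had a base mean of 99.0, differed by -0.12 ± 0.18 (adjusted p = 0.352). Xist had a base mean of 8423, while the Y-linked genes Kdm5d, Uty, Ddx3y and Eif2s3y lay between 0 and 0.253.

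Of the 17322 tested genes, 1498 were higher in Exo-L livers than in PBS-10 livers, a share of 8.65%, and 710 were lower, a share of 4.1%. The rises were large and the falls small: 681 genes were higher by at least 1 log2, against 19 lower by at least 1. The median deposited fold was 0.93 among the higher genes and -0.25 among the lower genes, beside -0.01 over all tested genes. Higher genes were mostly of modest abundance, with a median base mean of 102, and lower genes were abundant, with a median of 1542, beside 149.8 over all tested genes. Protein-coding genes made up 2079 of the 2208 called genes. The genes with the largest rises and falls, taken among those of a base mean of at least 50, are named next.

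**Figure D1:**
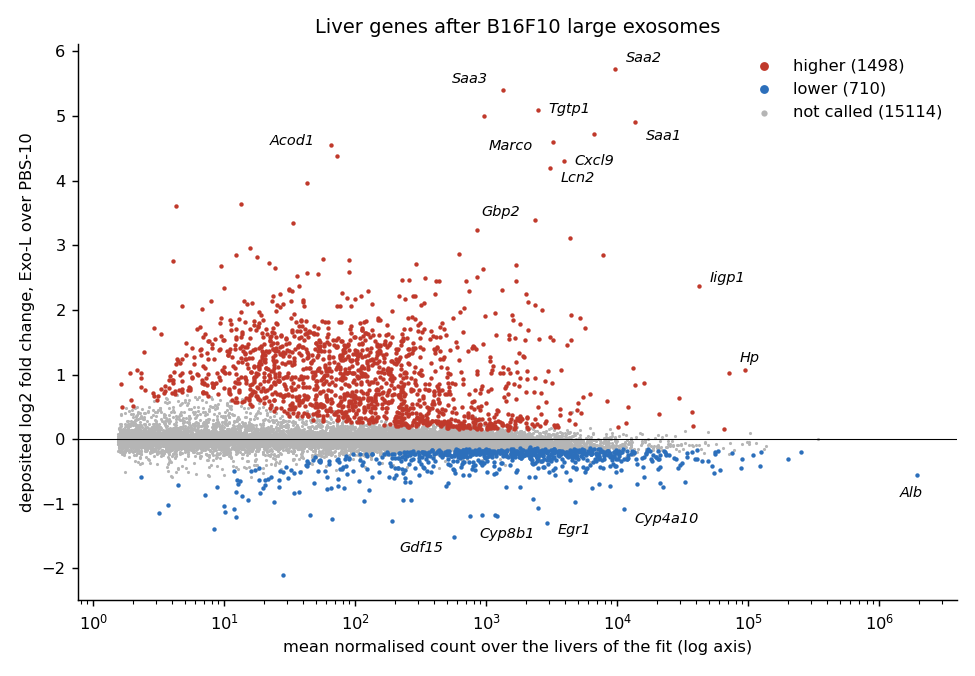
Each point is 1 of 17322 tested genes, with its base mean on a log axis against its deposited log2 fold change of Exo-L over PBS-10. Red points are the 1498 genes called higher and blue points the 710 called lower at an adjusted p under 0.05. The rises reach 5.72 (Saa2), whereas most falls lie close below 0 among abundant genes, with Alb at the far right at -0.55.

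The 12 largest rises among called genes with a base mean of at least 50, predicted genes left out, began with the serum amyloids. Saa2 was higher by 5.72 ± 0.29 (adjusted p = 9.96e-83), Saa3 by 5.40 ± 0.21 (adjusted p = 8.04e-137) and Saa1 by 4.91 ± 0.52 (adjusted p = 3.34e-21); these serum amyloid A proteins ride on high-density lipoprotein in inflammation, and Saa3 is made largely by macrophages. Tgtp1, an immunity-related GTPase induced by interferon-gamma, was higher by 5.10 ± 0.41, and BC023105, annotated as a pseudogene on chromosome 18, by 4.72 ± 0.44. Marco, a scavenger receptor of macrophages that binds bacteria and particles, was higher by 4.59 ± 0.19 (adjusted p = 2.19e-130). Acod1, which makes the antibacterial metabolite itaconate in activated macrophages, was higher by 4.56 ± 0.49, and Ubd, a ubiquitin-like modifier induced by interferon-gamma and tumour necrosis factor, by 4.38 ± 0.47. Cxcl9, a chemokine that draws T cells, was higher by 4.30 ± 0.23, and Lcn2, which withholds iron from bacteria, by 4.20 ± 0.51. Gbp2, a guanylate-binding protein, was higher by 3.39 ± 0.31, and Orm2, an acute phase orosomucoid, by 3.11 ± 0.24.

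The 12 largest falls under the same limits were smaller in size. Some weaker genes fell as far or farther, such as Krt23 (base mean 28.2) at -2.10 ± 0.43 and Mup1 (base mean 12.3) at -1.20 ± 0.71. Among the 12, Gdf15, a stress hormone that acts on the hindbrain, was lower, at -1.52 ± 0.37 on the log2 scale (adjusted p = 0.000111). The immediate early genes Egr1, Ier2 and Jun, which switch on within minutes of a stimulus, had folds of -1.30 ± 0.58, -1.19 ± 0.45 and -1.17 ± 0.43. Hao2, a peroxisomal hydroxyacid oxidase, had -1.27 ± 0.35. Cyp8b1, which sets the share of cholic acid in bile, had -1.19 ± 0.55, and G0s2, an inhibitor of the lipase ATGL, had -1.17 ± 0.26. Further P450 genes followed, with -1.08 ± 0.23 for Cyp4a10, a fatty acid hydroxylase, -1.06 ± 0.28 for Cyp2a22 and -0.97 ± 0.22 for Cyp2b13. The last of the 12 were the transcription factor gene Rfx4 at -0.95 ± 0.52 and the sulphotransferase gene Sult2a7 at -0.94 ± 0.56. Among the 12, errors were widest relative to the folds for Sult2a7, Rfx4, Cyp8b1 and Egr1.

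Group means on the count scale were derived for 66 genes from the base mean and the folds of the 3 particle classes, with no error attached because the folds are shrunken. Saa2 came to 16992 in Exo-L, 14766 in Exo-S, 6022 in exomere and 322 in PBS-10 livers. Marco came to 5661 in Exo-L, 4030 in Exo-S, 3035 in exomere and 235 in PBS-10 livers. Cxcl9 came to 6748 in Exo-L, 6206 in Exo-S, 2327 in exomere and 344 in PBS-10 livers. For these genes the PBS-10 mean was far below each particle group and the exomere mean was the lowest of the particle groups. Another order was seen for the GTPase Igtp, with 7995 in Exo-L, 16089 in Exo-S, 5845 in exomere and 1111 in PBS-10 livers. Cd74, the invariant chain of class II molecules, had 8178 in Exo-L, 5132 in Exo-S, 5319 in exomere and 2242 in PBS-10 livers, so that Exo-L stood highest. Whether the single livers of the groups overlapped cannot be read from these tables.

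**Figure D2:**
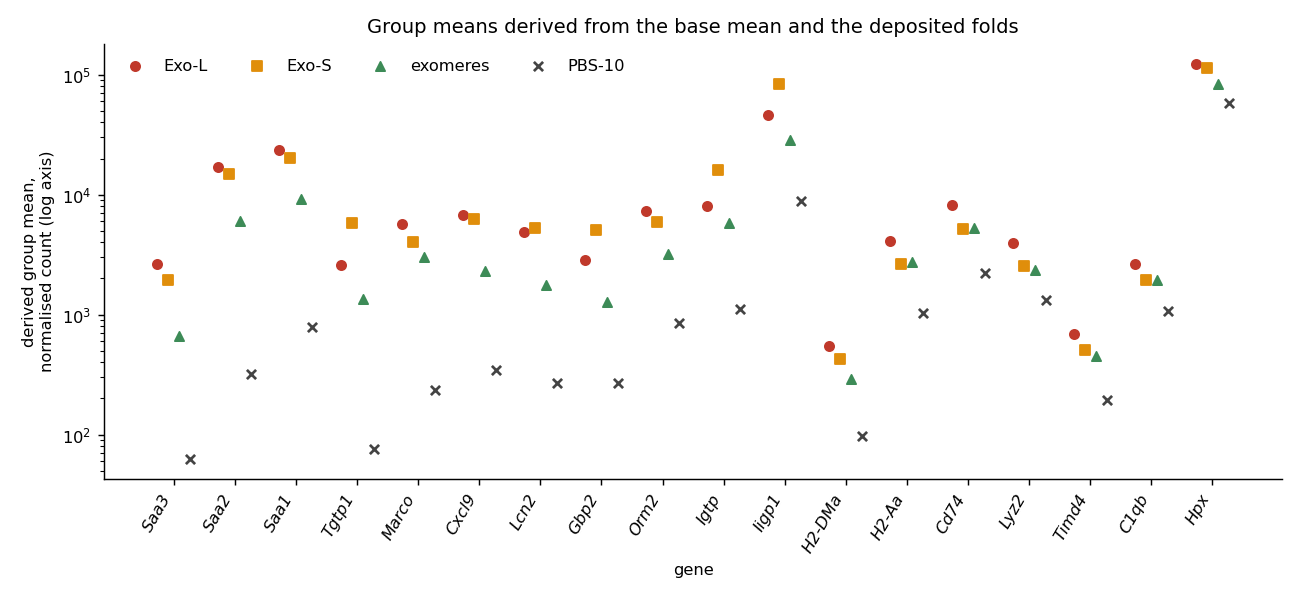
Group means on the normalised count scale (log axis), derived from the base mean and the deposited folds, for 18 genes in Exo-L, Exo-S, exomere and PBS-10 livers, in that order from left to right within a gene. PBS-10 is lowest for every gene drawn; Exo-S is highest for Tgtp1, Lcn2, Gbp2, Igtp and Iigp1, and Exo-L is highest for the other genes.

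Of 38 interferon-stimulated genes tested, 29 were higher in Exo-L livers and 9 were not called, and the median fold of the 38 was 1.36 beside -0.01 for all tested genes. The background share of genes called higher was 8.65%. After Cxcl9 and Gbp2 came Igtp at 2.85 ± 0.26, Gbp4 at 2.51 ± 0.25, Gbp3 at 2.45 ± 0.26 and Iigp1 at 2.38 ± 0.20. Igtp and Iigp1 are immunity-related GTPases, a family that takes part in defence against intracellular parasites. Irf7 was higher by 1.56 ± 0.15 and the double-stranded RNA sensor gene Oas1a by 1.53 ± 0.17. Cxcl10, a second chemokine for T cells, was higher by 2.22 ± 0.29. The 9 that were not called were Rsad2 at 0.02, Oasl1 at -0.01, Mx2 at 0.01, Ifit1 at 0.11, Ifi27 at 0.08, Dhx58 and Ddx58 both at 0.05, Cmpk2 at 0.14 and Usp18 at 0.26 (adjusted p = 0.0755 for the last). Close relatives of some of these were called, as were Ifit2 at 1.24 ± 0.22, Ifit3 at 1.04 ± 0.29, Mx1 at 1.24 ± 0.23 and Oasl2 at 1.61 ± 0.20. Isg15, a ubiquitin-like protein that Usp18 removes from its targets, was higher by 0.85 ± 0.30.

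The guanylate-binding proteins lie in 2 clusters on the mouse genome, and every tested gene of both was higher. On chromosome 3 (GRCm38) the 5 genes between Gbp5 (start 142493978) and Gbp2 (end 142638008) had folds from 2.07 for Gbp7 to 3.39 for Gbp2. On chromosome 5 the 6 genes between Gbp8 (start 105014150) and Gbp11 (end 105346472) had folds from 1.61 ± 0.47 for Gbp11 to 2.70 ± 0.39 for Gbp10. The 6 immunity-related GTPases examined ranged from 1.53 ± 0.23 for Irgm1 to 5.10 ± 0.41 for Tgtp1, with Tgtp2 at 2.71 ± 0.33. These genes are close copies, and Igtp and Irgm2 overlap on the same strand of chromosome 11, as do Gbp4, Gbp8 and Gbp9 on chromosome 5. How the authors assigned reads that fit several genes is not given in the sources used here, so the split among copies is uncertain. On chromosome 7 Saa3 (46711998 to 46715700), Saa1 (46740497 to 46742980) and Saa2 (46751790 to 46754313) were higher, whereas Saa4 (46727998 to 46732603), which lies among them and is made constitutively, had a fold of 0.02 ± 0.09 (adjusted p = 0.900).

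Promoter windows of 300 bases, 250 before to 50 after the transcription start, were taken from RefSeq on GRCm38.p6 for 11518 of the 17322 tested genes. They were searched on both strands for several motifs. The first described is the core of the interferon-stimulated response element, to which interferon regulatory factors bind. Its letters are GAAA and again GAAA with any 2 bases between them. It was present in 7.89% of 1115 windows of higher genes, in 2.52% of 516 windows of lower genes and in 3.22% of all tested windows. Among the interferon list it was present in 18 of 26 windows, and 15 of those 18 genes were called higher, as were 6 of the 8 genes whose window lacked these letters. Cxcl9 was among the genes whose window lacked them. In the acute phase list 2 of 22 windows held the element. Of the other motifs, the pattern searched for NF-kB left its middle bases free, which is too loose to show whether such sites were enriched. That pattern was matched in 63.9% of higher, 56.2% of lower and 66.2% of all tested windows. For the STAT site these shares were 10.1%, 6.2% and 7.14%, and for the E-box, CACGTG, they were 6.91%, 7.75% and 9.59%. D-box, sterol and heat shock motifs were also searched. The 5 sequences that follow, each the 250 bases before the start, 5′ to 3′ on the strand of the gene, show the element in genes of 3 kinds: GTPases, a chemokine and a serum amyloid. The element, in either orientation, is in capitals.
Tgtp1: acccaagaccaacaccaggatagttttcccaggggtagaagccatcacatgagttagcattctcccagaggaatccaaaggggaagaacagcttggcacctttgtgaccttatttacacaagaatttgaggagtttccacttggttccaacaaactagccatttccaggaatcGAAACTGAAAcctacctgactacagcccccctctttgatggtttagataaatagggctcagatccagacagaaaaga
Igtp: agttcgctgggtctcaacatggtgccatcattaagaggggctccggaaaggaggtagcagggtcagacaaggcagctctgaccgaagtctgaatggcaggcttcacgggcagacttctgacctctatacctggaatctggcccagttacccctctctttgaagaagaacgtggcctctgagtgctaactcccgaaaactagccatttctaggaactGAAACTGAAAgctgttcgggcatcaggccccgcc
Gbp2: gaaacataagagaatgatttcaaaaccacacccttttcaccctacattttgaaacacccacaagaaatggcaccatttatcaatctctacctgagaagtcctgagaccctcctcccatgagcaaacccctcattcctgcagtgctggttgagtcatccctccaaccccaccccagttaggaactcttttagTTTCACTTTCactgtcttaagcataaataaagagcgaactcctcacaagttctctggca
Cxcl10: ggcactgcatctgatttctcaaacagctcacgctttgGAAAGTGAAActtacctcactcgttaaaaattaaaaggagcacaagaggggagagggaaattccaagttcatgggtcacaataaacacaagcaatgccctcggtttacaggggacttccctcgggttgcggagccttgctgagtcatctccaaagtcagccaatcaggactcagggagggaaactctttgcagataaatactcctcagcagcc
Saa3: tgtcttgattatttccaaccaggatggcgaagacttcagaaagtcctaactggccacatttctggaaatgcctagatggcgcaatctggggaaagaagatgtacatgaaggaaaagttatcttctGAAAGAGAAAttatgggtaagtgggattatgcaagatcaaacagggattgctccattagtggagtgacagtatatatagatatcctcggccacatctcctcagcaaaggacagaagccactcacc
The windows are chr11:48992247-48992496 (minus strand) for Tgtp1, chr11:58199306-58199555 (plus) for Igtp, chr3:142620413-142620662 (plus) for Gbp2, chr5:92348890-92349139 (minus) for Cxcl10 and chr7:46715677-46715926 (minus) for Saa3. The element ended 24 bases before the RefSeq start in Igtp, 49 in Gbp2, 67 in Tgtp1, 115 in Saa3 and 203 in Cxcl10. The GENCODE gene models used for the other coordinates can begin elsewhere, as at 48994172 for Tgtp1 and 142620602 for Gbp2. By those models the Tgtp1 window lies inside the gene. A match is a description of the sequence, and binding was not measured.

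Antigen presentation genes rose without exception: all 17 of 17 tested members were higher, with a median fold of 1.87. Class II genes were foremost, with 2.49 ± 0.17 for H2-DMa, which loads peptides, 2.25 ± 0.16 for H2-Eb1, 2.12 ± 0.16 for H2-Ab1 and 1.99 ± 0.14 for H2-Aa, the chains of the class II molecules themselves. Ciita, the master activator of class II genes, was higher by 2.46 ± 0.22. The immunoproteasome genes Psmb8, Psmb9 and Psmb10, which cut peptides for class I, were higher by 1.92 ± 0.19, 1.95 ± 0.22 and 1.61 ± 0.17. The peptide transporter gene Tap1 was higher by 1.68 ± 0.21. Class I heavy chains moved less, with 0.84 ± 0.10 for H2-D1 and 0.64 ± 0.11 for H2-K1, and the smallest rise was that of their partner B2m at 0.43 ± 0.09.

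Many markers of immune cells were higher in the same livers, beside 8.65% of all tested genes called higher. In bulk liver, more cells of a type and more RNA per cell cannot be told apart, nor can fewer cells and less RNA. Of 20 T and natural killer cell markers tested, 17 were higher, with a median of 1.45. They included the chemokine Ccl5 at 2.58 ± 0.23, the cytotoxic granule genes Nkg7 at 2.16 ± 0.28 and Gzmb at 2.06 ± 0.29, the interleukin-2 receptor chain Il2rb at 1.47 ± 0.15, and the T-cell receptor genes Cd3g at 1.81 ± 0.26, Trbc2 at 1.75 ± 0.24 and Cd3e at 1.44 ± 0.27. Cd4 was higher by 1.30 ± 0.27 and Cd8a by 1.21 ± 0.48. These genes are weakly expressed in liver: only 4 of those called higher had a base mean of at least 50. Of 15 B and plasma cell markers 5 were higher, with Igkc at 1.41 ± 0.20, Igha at 1.39 ± 0.27 and Ighm at 1.03 ± 0.14, while the B-cell genes Cd79a, at 0.06, and Pax5, at 0.04, were not called. Of 14 tested neutrophil markers, out of 20 listed, 8 were higher, among them the receptors Csf3r at 1.25 ± 0.15, Fpr1 at 1.03 ± 0.15 and Fpr2 at 1.53 ± 0.25. The abundant neutrophil calprotectin genes S100a8, at 0.75 ± 0.58, and S100a9, at 0.48 ± 0.42, were called with wide errors. How much of the interferon and antigen presentation result came from such cells was not tested.

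Most of the macrophage markers tested were higher, beside 8.65% of all tested genes called higher and 4.1% called lower. Of 17 Kupffer cell markers, 13 were higher in Exo-L livers, with a median of 0.95. Besides Marco, the phosphatidylserine receptor Timd4 was higher by 1.80 ± 0.14, lysozyme Lyz2 by 1.56 ± 0.11, the F4/80 gene Adgre1 by 1.47 ± 0.15, the secreted scavenger protein Cd5l by 1.46 ± 0.11 and the growth factor receptor Csf1r by 0.95 ± 0.13. The defining Kupffer gene Clec4f was higher by 0.24 ± 0.12, Vsig4, which clears complement-coated particles, by 0.75 ± 0.13, and the haemoglobin receptor Cd163 was at 0.01 (adjusted p = 0.935). The 3 chains of C1q, made in liver chiefly by macrophages, were higher by 1.33 ± 0.11 (C1qa), 1.28 ± 0.07 (C1qb) and 1.27 ± 0.09 (C1qc). Of 15 markers of recruited macrophages 11 were higher and 1 was lower, with a median of 1.00. The monocyte genes Ly6c2, at 2.52 ± 0.33, and Ccr2, at 2.29 ± 0.20, led them, with Itgax at 2.21 ± 0.20 and Gpnmb, a gene of lipid-laden macrophages, at 2.14 ± 0.43. The lower member was fibronectin, Fn1, at -0.23 ± 0.05, which hepatocytes make in bulk. Trem2, at 0.01, and Spp1, at 0.05, were not called.

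Some inflammatory and acute phase genes were higher, beside 8.65% of all tested genes called higher and 4.1% called lower. Of 29 tested targets of NF-kB and inflammatory cytokines 13 were higher, with a median of 0.23. The adhesion molecules Vcam1 and Icam1, by which vessels hold leukocytes, were higher by 1.38 ± 0.18 and 1.24 ± 0.15. Tnf was higher by 1.81 ± 0.45, Ccl2 by 1.34 ± 0.49, Traf1 by 1.58 ± 0.24 and Relb by 1.28 ± 0.21. Il1b, at 0.34 (adjusted p = 0.0835), Nfkb1 and Cxcl1, both at 0.10, were not called. Of 26 acute phase genes 13 were higher, but the median fold was 0.18. Beside the serum amyloids, Lcn2 and Orm2, the haem scavenger Hpx was higher by 1.07 ± 0.08, the haemoglobin scavenger Hp by 1.03 ± 0.08 and Orm1 by 0.87 ± 0.09. Fibrinogen chains, which are acute phase proteins driven by interleukin-6, were not called, with -0.05 for Fga, -0.04 for Fgb and -0.06 for Fgg. Socs3, the feedback inhibitor of the same signal, had a fold of 0.22 (adjusted p = 0.156). Of 32 complement and coagulation genes 8 were higher and 6 lower; apart from C1q the higher ones included C9 at 0.41 ± 0.10 and C2 at 0.28 ± 0.14, and the lower ones were F2, Serpinc1, Proc, C8g, Plg and F7, between -0.17 and -0.23.

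**Figure D3:**
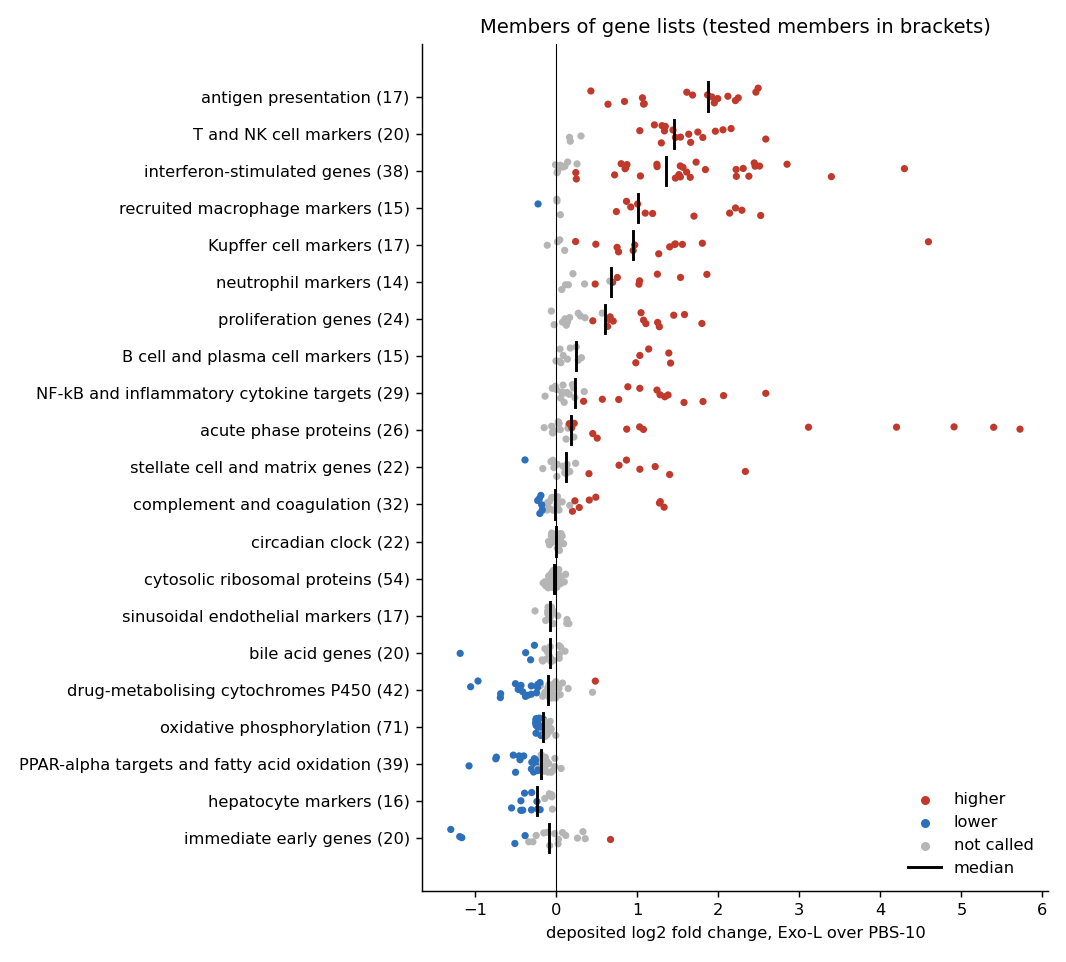
Each point is a tested member of a gene list, at its deposited log2 fold change of Exo-L over PBS-10, in red where called higher, blue where called lower and grey otherwise; the black bar is the list's median and the bracket gives its number of tested members. Antigen presentation has all 17 members above 0 and a median of 1.87, whereas all 71 oxidative phosphorylation members lie below 0 within a narrow range around -0.17.

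Cell cycle and matrix genes also differed, beside 8.65% of all tested genes called higher and 4.1% called lower. Of 24 proliferation genes 13 were higher, with a median of 0.60: the replication helicase subunits Mcm5 at 1.45 ± 0.17 and Mcm6 at 1.27 ± 0.17, the topoisomerase Top2a at 1.58 ± 0.22, the mitotic kinase Aurkb at 1.80 ± 0.37 and Mki67 at 1.05 ± 0.26 were among them. Ccnd1, at 0.08, and Pcna, at 0.11, were not called. Of 22 stellate cell and matrix genes 7 were higher and 1 was lower, the latter near the share of all tested genes. The fibrillar collagens Col1a1, at 1.40 ± 0.13, Col3a1, at 1.03 ± 0.11, and Col1a2, at 0.87 ± 0.13, were higher, as were vimentin Vim, at 1.22 ± 0.12, the protease inhibitor Timp1, at 2.33 ± 0.71, and Tgfb1, at 0.77 ± 0.18. Ecm1, a hepatocyte product that holds TGF-beta in its latent form, was lower at -0.39 ± 0.09. Des, at 0.24 (adjusted p = 0.0581), Reln, at -0.17, and Pdgfrb, at 0.11, which mark stellate cells as such, were not called.

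Most hepatocyte markers were lower, by small amounts. All 16 hepatocyte markers had a negative fold, and 10 of them were called lower, with a median of -0.24, beside a background of 4.1% of genes called lower. Albumin, Alb, was lower, at -0.55 ± 0.12, as were the apolipoprotein Apoa2, at -0.44 ± 0.07, the protease inhibitor Serpina1a, at -0.44 ± 0.09, and transthyretin Ttr, at -0.30 ± 0.12. The hepatocyte factor Hnf4a, at -0.05, and the urea cycle genes Cps1 and Ass1, both at -0.06, were not called. Immune cell markers were higher in the same livers, as given above. The part of a changed cell make-up in these small falls was not tested.

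Many mitochondrial and fatty acid oxidation genes were lower, each by a small amount. Of 71 oxidative phosphorylation genes encoded in the nucleus, 40 were lower and all 71 had a negative fold, with a median of -0.17 and a lowest value of -0.26, beside 4.1% of all tested genes called lower and a median of -0.01. The complex II subunit Sdha was lower, at -0.21 ± 0.05 (adjusted p = 1.26e-05), and so were the ATP synthase genes Atp5g1, at -0.25 ± 0.07, and Atp5g3, at -0.26 ± 0.08. Of 39 genes of fatty acid oxidation and targets of PPAR-alpha, the fasting-induced receptor that drives it, 18 were lower, and 38 had a negative fold; the median was -0.20. They included Cyp4a10, its relative Cyp4a14 at -0.74 ± 0.29, the pantetheinase Vnn1 at -0.75 ± 0.14 and the acyl-CoA dehydrogenase Acadm at -0.46 ± 0.10. Cpt1a, the entry step of mitochondrial fatty acid oxidation, had -0.14 (adjusted p = 0.234), and Fgf21, a PPAR-alpha-driven hormone, also had -0.14 (adjusted p = 0.423). The direct repeat to which PPAR-alpha binds, AGGNCA and again AGGNCA with any 1 base between them, was in 1.55% of windows of lower genes, in 0.717% of higher genes and in 0.269% of all tested genes, which is 8 windows in each of the called groups. Only 1 of 26 windows of the PPAR-alpha list held the repeat, and 0 of 59 of the oxidative phosphorylation list.

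Some genes of drug, steroid and bile acid metabolism were lower, beside the same 4.1% of all tested genes called lower and 8.65% called higher. Of 42 drug-metabolising P450 genes 17 were lower and 1, Cyp2g1 at 0.48 ± 0.35, was higher. All 17 lower ones were Cyp2 genes, among them Cyp2c37 at -0.69 ± 0.11, Cyp2c54 at -0.69 ± 0.17 and Cyp2e1 at -0.42 ± 0.15, while Cyp3a11, at -0.17 (adjusted p = 0.133), and Cyp1a2, at -0.09, were not called. Of 38 conjugation enzymes 9 were lower, led by the sulphotransferase Sult2a8 at -0.73 ± 0.11, and 4 were higher, led by Sult5a1 at 1.03 ± 0.23. Of 20 bile acid genes 4 were lower: Cyp8b1, the bile acid importer Slc10a1 at -0.38 ± 0.14, the exporter Abcc3 at -0.32 ± 0.08 and the conjugating enzyme Slc27a5 at -0.27 ± 0.09. Of 36 growth hormone and sex-biased genes 8 were lower. Among them were Cyp2b9 at -0.47 ± 0.19, Igfbp2 at -0.45 ± 0.22 and Cyp2d9 at -0.50 ± 0.27. The growth hormone receptor Ghr, at -0.19 ± 0.09, and the major urinary protein Mup1, of low base mean, at -1.20 ± 0.71, were also lower. Of 27 genes of gluconeogenesis and the urea cycle 4 were lower, among them Fbp1 at -0.28 ± 0.11 and Otc at -0.24 ± 0.09. Close P450 copies share sequence, so their individual values are uncertain.

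Some members of the sugar, lipid and iron lists were called, beside 8.65% of all tested genes called higher and 4.1% called lower. Of 26 lipogenic genes only G6pdx, which feeds the pentose phosphate pathway, was called, at 1.18 ± 0.17, and the fatty acid desaturase Scd1 had 0.09. Of 22 hypoxia and glycolysis genes 4 were higher, namely Pkm at 1.37 ± 0.14, Hk2 at 1.71 ± 0.24, Hk1 at 0.69 ± 0.16 and Aldoa at 0.31 ± 0.12, forms of glycolytic enzymes that hepatocytes hardly use, and Epas1 and Egln1 were lower at -0.21 ± 0.08 and -0.20 ± 0.09. Of 28 cholesterol genes 3 were lower, Mvk at -0.52 ± 0.24, Tm7sf2 at -0.26 ± 0.11 and Srebf2 at -0.23 ± 0.12. Of 24 genes of lipid droplets and uptake 5 were lower, with G0s2 first, and Lpl was higher at 0.87 ± 0.18. Of 17 iron genes the haem-degrading enzyme Hmox1 was higher at 0.81 ± 0.15, and Tmprss6, Tfr2 and Hamp2 were lower at -0.26 ± 0.08, -0.19 ± 0.08 and -0.64 ± 0.48. Of 11 bile duct markers 1 was lower, Krt23, and 1 was higher, Anxa5 at 0.37 ± 0.11, beside 4.1% lower and 8.65% higher of all tested genes, so the list did not stand out; the duct keratins Krt7 and Krt19 had folds of 0.01 and -0.01.

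Several lists gave no call by the authors' DESeq2 test. At an unadjusted p under 0.05 there were 2 of 17 sinusoidal endothelial markers, 3 of 54 cytosolic ribosomal protein genes, 1 of 14 heat shock genes, 0 of 22 clock genes and 0 of 9 metallothionein and zinc transport genes, beside 22.6% of all tested genes at that threshold. Stab2 and Lyve1, which define sinusoidal endothelium, had folds of -0.11 and 0.13, and the clock repressor Nr1d1 had -0.10. Of 25 genes of the unfolded protein response 1 was called, Atf4, lower at -0.24 ± 0.08, a share near the 4.1% of all tested genes. Of 20 immediate early genes 5 were lower, Egr1, Ier2, Jun, Zfp36 and Jund, beside 4.1% of all tested genes called lower. Only 1 was higher, Myc at 0.67 ± 0.51, a share under the 8.65% of all tested genes called higher. Fos had -0.34 (adjusted p = 0.165).

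The other particle classes were set against the same 4 PBS-10 livers, so their folds share the controls of Exo-L and are given side by side. These folds are shrunken, and a weak effect can be pulled toward 0 more than a strong one. Gaps between classes in folds and list medians, here and below, can therefore be overstated. Exo-S livers had 1084 higher genes (6.84% of those tested there) and 463 lower (2.92%). Exomere livers had 654 higher (4.26%) and 103 lower (0.67%). Higher calls thus outnumbered lower calls in each, and Exo-L had the most of both. Among 17 antigen presentation genes the number called higher was 17 in Exo-L, 17 in Exo-S and 17 in exomere livers, and the median fold was 1.87 in Exo-L, 1.54 in Exo-S and 1.30 in exomere livers. Among 38 interferon-stimulated genes it was 29 in Exo-L, 30 in Exo-S and 25 in exomere livers, and the median fold was 1.36 in Exo-L, 1.34 in Exo-S and 0.79 in exomere livers. Among 17 Kupffer markers it was 13 in Exo-L, 8 in Exo-S and 11 in exomere livers, and the median fold was 0.95 in Exo-L, 0.12 in Exo-S and 0.59 in exomere livers. Among 24 proliferation genes it was 13 in Exo-L, 13 in Exo-S and 3 in exomere livers. Lower calls among 71 oxidative phosphorylation genes numbered 40 in Exo-L, 22 in Exo-S and 1 in exomere livers, and among 39 genes of the fatty acid oxidation and PPAR-alpha list tested in Exo-L they numbered 18 in Exo-L, beside 8 of 38 in Exo-S and 5 of 38 in exomere livers.

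**Figure D4:**
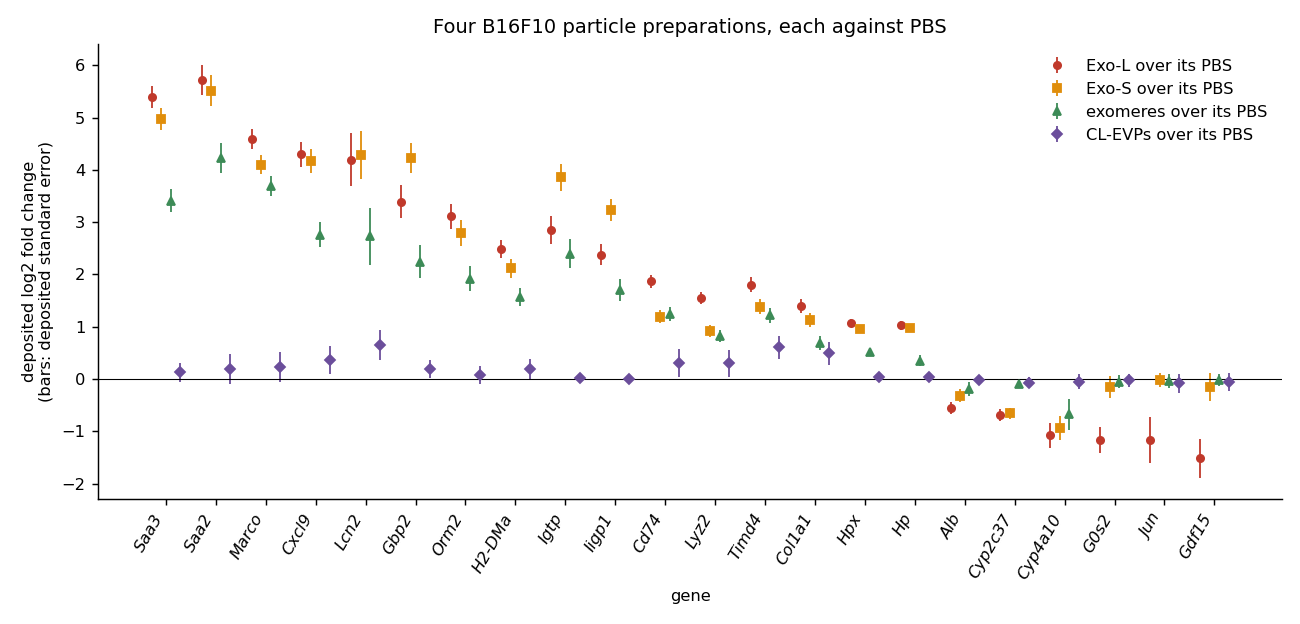
Deposited log2 fold changes with their deposited standard errors (bars) for 22 genes, in Exo-L, Exo-S and exomere livers over PBS-10 and in CL-EVPs livers over PBS-8. Exo-L and Exo-S lie close together for the serum amyloids, Exo-S is higher for Gbp2, Igtp and Iigp1, and for G0s2, Jun and Gdf15 the Exo-L point alone lies below -1.

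Whether Exo-L and Exo-S differed was tested on the difference of the scores behind both p-values, with Benjamini-Hochberg adjustment over 17322 genes. Treated as independent, which is strict because the PBS-10 livers are shared, 1 gene was higher in Exo-L, a share of 0.00577%, and 0 were lower, while at an unadjusted p under 0.05 there were 267 higher (1.54%) and 119 lower (0.687%). The 1 gene was Slc43a2, an amino acid transporter gene, at 0.28 ± 0.12 in Exo-L and -0.24 ± 0.13 in Exo-S livers (adjusted p = 0.0412). With the covariance that 4 shared livers imply, 120 genes were higher in Exo-L (0.693%) and 22 were lower (0.127%). These counts rest on equal errors in both comparisons; where it could be checked, over 194 genes, the deposited error of Exo-S was 1.01 times that of Exo-L at the median, and 0.97 to 1.06 times from the 5th to the 95th percentile.

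Fixed lists held part of the larger count, and the genes named here from outside the lists were chosen after their values were seen. Of 17 Kupffer markers 9 were higher in Exo-L than in Exo-S livers under the shared covariance. Csf1r had 0.95 ± 0.13 in Exo-L and 0.12 in Exo-S livers, Vsig4 had 0.75 ± 0.13 in Exo-L and 0.08 in Exo-S livers, and Folr2 had 0.77 ± 0.14 in Exo-L and 0.12 in Exo-S livers. Lyz2 had 1.56 ± 0.11 in Exo-L and 0.93 in Exo-S livers. Among genes outside that list, Sirpa, an inhibitory receptor of myeloid cells, had 1.44 in Exo-L and 0.71 in Exo-S livers (adjusted p with covariance = 1.48e-06), and C1qb had 1.28 in Exo-L and 0.86 in Exo-S livers. Of 17 antigen presentation genes 3 were higher in Exo-L, namely Cd74, H2-Aa and H2-Eb1, all of class II. Of the 22 genes lower in Exo-L than in Exo-S livers, 2 were among the 38 interferon-stimulated genes, Irgm1 and Iigp1, and 1 was among the 16 hepatocyte markers, Apoa1. Irgm1 had 1.53 ± 0.23 in Exo-L and 2.56 in Exo-S livers, Iigp1 had 2.38 ± 0.20 in Exo-L and 3.23 in Exo-S livers, and Apoa1 had -0.24 in Exo-L and 0.04 in Exo-S livers. Others of the 22 were Gbp7, with 2.07 in Exo-L and 3.17 in Exo-S livers, and Mug1, with -0.41 in Exo-L and 0.04 in Exo-S livers. Parp9 and its partner Dtx3l had 0.33 and 0.29 in Exo-L and 0.86 and 0.83 in Exo-S livers. Sult2a8 had -0.73 in Exo-L and -0.14 in Exo-S livers, and Vnn1 had -0.75 in Exo-L and -0.10 in Exo-S livers. None of these was called when the shared controls were left out of account. Among the largest falls of Exo-L, 3 that passed neither test of the difference from Exo-S were Gdf15, G0s2 and Jun. Gdf15 had -1.52 ± 0.37 in Exo-L and -0.15 ± 0.27 in Exo-S livers (adjusted p with covariance = 0.283), G0s2 had -1.17 ± 0.26 in Exo-L and -0.15 ± 0.21 in Exo-S livers (adjusted p = 0.220), and Jun had -1.17 ± 0.43 in Exo-L and -0.01 ± 0.13 in Exo-S livers (adjusted p = 0.0574).

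**Figure D5:**
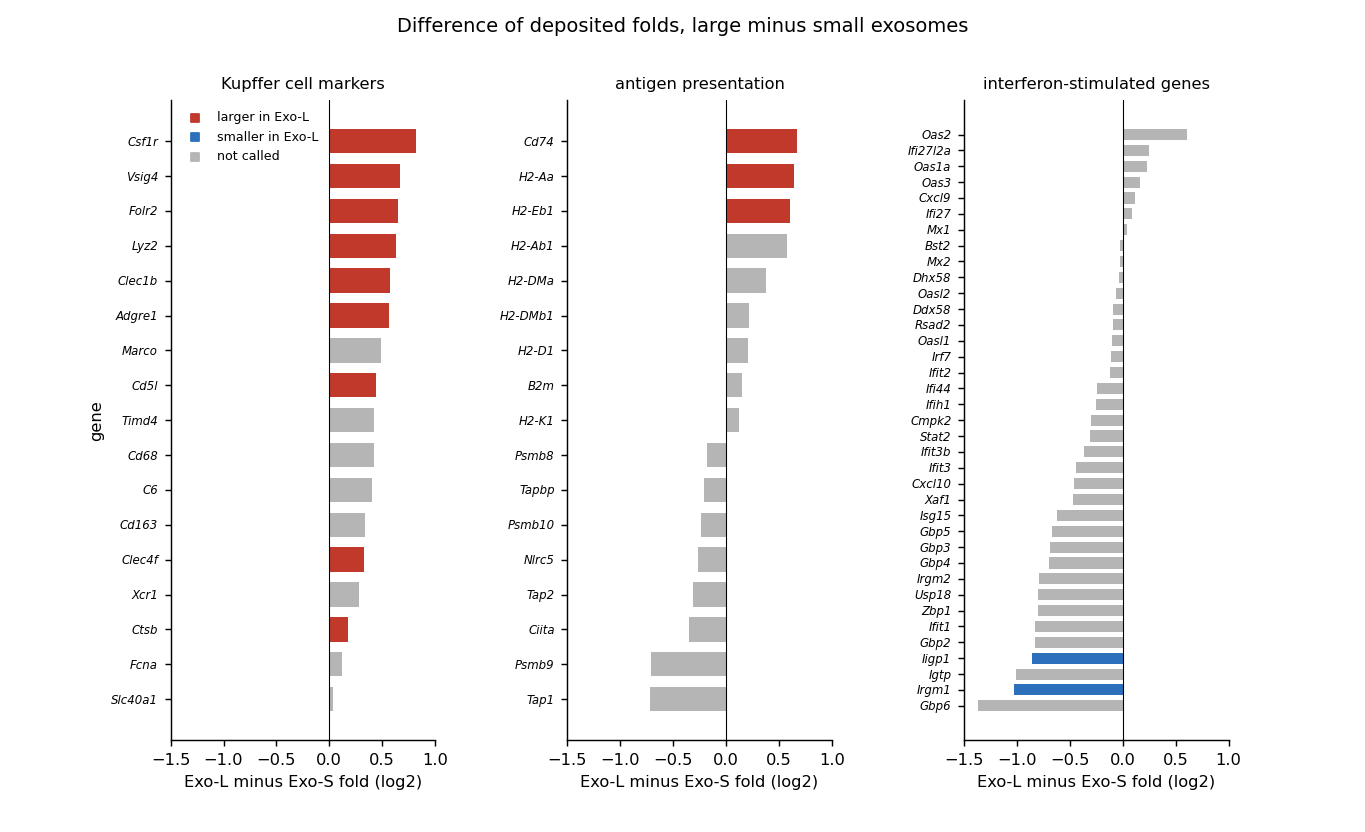
Bars give the deposited log2 fold of Exo-L minus that of Exo-S for the tested members of 3 lists (1 interferon list member is not drawn), coloured where the difference was called with the covariance of the shared PBS-10 livers (red larger in Exo-L, blue smaller in Exo-L) and grey otherwise. The Kupffer bars are called for 9 of 17 members, all to the right of 0, and in the interferon list 2 of 38 are called, Irgm1 and Iigp1, both to the left. Bar lengths come from shrunken folds and can overstate a difference.

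Exo-L and exomeres differed more. On the strict test 11 genes were higher in Exo-L (0.0635%) and 0 were lower; at an unadjusted p under 0.05 there were 475 higher (2.74%) and 196 lower (1.13%), and with the shared covariance 284 higher (1.64%) and 82 lower (0.473%). Saa3 had 5.40 ± 0.21 in Exo-L and 3.42 ± 0.22 in exomere livers (adjusted p = 7.81e-07), Hp had 1.03 ± 0.08 in Exo-L and 0.35 ± 0.10 in exomere livers (adjusted p = 0.000255), and Hpx had 1.07 ± 0.08 in Exo-L and 0.52 ± 0.08 in exomere livers (adjusted p = 0.00780). Cxcl9 had 4.30 ± 0.23 in Exo-L and 2.76 ± 0.24 in exomere livers. The rest of the 11 were Cd52, Cyth4, Lyz2, C1qb, Fxyd5, Fcer1g and Sirpa. With the covariance, 7 of 26 acute phase genes, 8 of 24 proliferation genes and 6 of 22 matrix genes were higher in Exo-L than in exomere livers, and 7 of 42 P450 genes were lower, among them Cyp2c37 at -0.69 ± 0.11 in Exo-L and -0.09 in exomere livers and Cyp2e1 at -0.42 ± 0.15 in Exo-L and 0.00 in exomere livers. Gdf15, with -1.52 ± 0.37 in Exo-L and -0.02 ± 0.12 in exomere livers (adjusted p with covariance = 0.0144), and G0s2, with -1.17 ± 0.26 in Exo-L and -0.05 ± 0.13 in exomere livers (adjusted p with covariance = 0.0360), were lower in Exo-L by that test, whereas Jun, with -1.17 ± 0.43 in Exo-L and -0.03 ± 0.13 in exomere livers, was not called (adjusted p with covariance = 0.155). The strict test called none of these 3.

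CL-EVPs livers were set against PBS-8 in an experiment of its own, so that particle and experiment cannot be told apart, and the difference from Exo-L was not tested. They had 337 higher genes (2.34%) and 208 lower (1.44%). Saa3 had 5.40 ± 0.21 in Exo-L and 0.13 ± 0.17 in CL-EVPs livers, and Marco had 4.59 ± 0.19 in Exo-L and 0.23 ± 0.29 in CL-EVPs livers. Cxcl9 had 4.30 ± 0.23 in Exo-L and 0.36 ± 0.27 in CL-EVPs livers, where it was called higher (DESeq2 adjusted p = 0.0484). Saa1 and Lcn2 were also called higher in CL-EVPs livers, at 0.66 ± 0.37 and 0.65 ± 0.28, beside 4.91 ± 0.52 and 4.20 ± 0.51 in Exo-L livers. Of 26 acute phase genes 2 were called higher and 1 lower in CL-EVPs livers. The median of the antigen presentation list was 1.87 in Exo-L and 0.09 in CL-EVPs livers, and that of the interferon list was 1.36 in Exo-L and 0.02 in CL-EVPs livers. For Kupffer markers it was 0.95 in Exo-L and 0.41 in CL-EVPs livers, where 10 of 17 members were called higher, including Vsig4 at 0.65, Adgre1 at 0.68 and Clec4f at 0.50.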

How the data were processed

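Poly(A) RNA of flash-frozen livers (TRIzol and RNeasy with a DNase digest) was sequenced by the authors as TruSeq Stranded mRNA libraries, per the labels' protocols. The submitters' processing notes name bcl2fastq 2.19, TopHat2 2.0.11, Cufflinks 2.1.1, DESeq2 without a version, and the build mm9; the counting tool is not given in the sources used here. Most identifiers match GENCODE vM21, so coordinates are those of GENCODE vM21 and RefSeq on GRCm38, matched by gene. Per the file headers, each of the authors' deposited DESeq2 tables holds 5 measures per gene: the base mean (a signal averaged over a fit's livers, scaled by size factors), the log2 fold change, its log2 error, the p-value and the adjusted p-value. Fold over error came within 1% of the score of the p-value in 0.341% of tested genes, so the deposited folds were shrunken. No column of single livers was used, so depth per library is unknown and the precision is that of the deposited errors.

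With no counts at hand the planned count test was not run, and the authors' calls are described. A recovery of unshrunken effects was tried and abandoned because it did not give a single solution, so differences between particle classes were tested instead on signed scores of the p-values (normal reference, two-sided), a choice made after the tables were seen, and that from CL-EVPs was not tested. Group means were solved from base means and folds for genes with p under 1e-06 in each of the 3 particle classes, with 4 livers a group and an assumed 16 in the fit. Calculations used Python 3.11.15, numpy 2.4.6, pandas 2.3.3, scipy 1.17.1 and matplotlib 3.10.9. Only the test of differences between particle classes was tried on simulated counts. Those counts had the same dispersion for all genes and groups, which is simpler than real data.

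Members and the 42 gene lists (1014 entries, of which 994 were found) were chosen with earlier results of these data known, so lists are described by counts and medians only. The rule for named genes took the 12 largest rises and falls whose base mean reached 50, in each list the 3 members with the lowest p, and up to 6 passing differences each way; predicted genes were left out, and further list members were named after their values were seen. Mitochondrially encoded genes were not analysed here, and some list members are counted but not reported here by name.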

Additional observations from a re-analysis of the deposited data

Results flagged for a closer look

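Some genes had an Exo-L effect that differed from that of another particle class by the strict score test with Benjamini-Hochberg adjustment over 17322 genes. Against Exo-S there was 1, Slc43a2, higher in Exo-L than in PBS-10 livers and lower in Exo-S than in PBS-10 livers (adjusted p of the difference = 0.0412). Against exomeres there were 11, each with the larger rise in Exo-L livers. The adjusted p of the difference was 7.81e-07 for Saa3 and 0.000255 for Hp. It was 0.0078 for Hpx, Cxcl9, Cd52 and Cyth4. It was 0.0183 for Lyz2, 0.0279 for C1qb and Fxyd5, 0.0379 for Fcer1g and 0.0469 for Sirpa. Cd52 had 2.11 ± 0.11 in Exo-L and 1.41 ± 0.11 in exomere livers, and Cyth4 had 1.48 ± 0.11 in Exo-L and 0.75 ± 0.12 in exomere livers. Fxyd5 had 1.52 ± 0.12 in Exo-L and 0.81 ± 0.12 in exomere livers, Fcer1g had 1.71 ± 0.11 in Exo-L and 1.08 ± 0.11 in exomere livers, and Sirpa had 1.44 ± 0.11 in Exo-L and 0.77 ± 0.12 in exomere livers. With errors made 5/4 as large, Saa3 alone kept its call against exomeres and Slc43a2 lost its call against Exo-S.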

How the results depend on the processing

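The tables give no value per liver, so no liver could be left out and no count test refitted, and unshrunken folds are not given because their recovery was abandoned. No paired analysis was possible because the columns used carry no single livers. The 1498 higher genes ranged between 1010 and 1742 over other thresholds, filters and centring, and the 710 lower genes between 100 and 1033: 358 at an adjusted p under 0.01, 100 with a fold of at least 0.5, 582 over all 26144 genes with a p-value and 716 over the 10978 with a base mean of at least 50. Centring on the median of -0.02 gave 1619 higher and 524 lower. With members of base mean at least 50 only, 4 T and natural killer cell markers in place of 17 and 8 proliferation genes in place of 13 were higher. In these list counts the limit left out members and changed no call, so the lists were shorter too. Recentring gave 2 higher P450 genes in place of 1. A further 10 list counts moved by over 1.5 times. With the base mean limit, the higher members were 7 in place of 13 for NF-kB targets, 3 in place of 8 for neutrophil markers, 6 in place of 11 for recruited macrophages, 3 in place of 5 for B and plasma cells and 2 in place of 4 for conjugation enzymes, and the lower bile duct gene dropped out. Recentring left 1 lower hypoxia and glycolysis gene in place of 2, and 0 in place of 1 for the erythroid, lysosome and serum response lists. With the limit 3 list medians moved, to 1.25 for neutrophil markers, 0.63 for B and plasma cells and -0.61 for pancreatic acinar genes. Of named genes, the call was lost 4 times over all named genes and 3 settings (Alas2 under 2 settings, Tfr2 and Srebf2 after recentring), gained once (Agpat2) and kept 400 times. Exo-L minus Exo-S gave 1 higher gene, 0 with errors 5/4 as large, 7 over genes with a base mean of at least 50, and 120 higher and 22 lower with the shared covariance. Exo-L minus exomeres gave 11 higher, 1 with the larger errors, and 284 higher and 82 lower with the covariance. Low abundance limits the T, natural killer and neutrophil markers, many of which have a base mean under 50.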
